A study of Rattus norvegicus with 10 samples.

Results

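The urocortin and corticotropin-releasing factor (CRF) system of the rat trigeminal ganglion (TG) was described through 7 genes: the peptide genes *Ucn*, *Ucn2*, *Ucn3* and *Crh*, the receptor genes *Crhr1* and *Crhr2*, and *Crhbp*, which encodes a secreted protein that binds CRF and urocortin. They were 7 of the 15501 genes with a symbol on the array and were read by 10 of its 30367 probes, found by the accession attached to each probe. The family was chosen on measured values, since *Ucn* stands in the study's list of upregulated genes, which was drawn from these same arrays. The contrast between groups is therefore given for all family probes as a description, with no test.

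One-colour Agilent SurePrint G3 arrays measured total RNA from 10 male Wistar rats, 1 array per rat. The 5 naive rats, which the labels call Control, were anesthetized and left untreated. The 5 rats of the oral ulcerative mucositis (OUM) model, labelled Stomatitis, had filter paper wetted with 50% acetic acid held against the mucosa at the lower incisors for 30 sec under pentobarbital and were sampled on day 2. Whole ganglia of both sides were taken, so the cells that innervate the ulcerated mucosa are a part of each sample, and fewer cells of a type cannot be told apart from less RNA per cell.

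CRF and the urocortins are related peptides that act on a pair of class B G protein-coupled receptors. CRF is best known as the hypothalamic peptide that drives release of adrenocorticotropin from the pituitary. CRF prefers the receptor encoded by *Crhr1*, urocortin binds both receptors, and the peptides encoded by *Ucn2* and *Ucn3* prefer the receptor encoded by *Crhr2*. Both receptors couple mainly to Gs and raise cyclic AMP, and members of the family have been found outside the brain in sensory ganglia, immune cells, heart and gut.

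The 3 urocortin genes differ in the sequence just upstream of their annotated starts, which is shown because cyclic AMP is the main messenger of this system. A link between these sequences and the measured signals was not tested. The sequences are the 250 bases before the start in RefSeq on the GRCr8 assembly, all on the plus strand, 5′ to 3′, at chr6:30957836-30958085 for *Ucn*, chr8:118515861-118516110 for *Ucn2* and chr17:71219406-71219655 for *Ucn3*. Capitals mark matches on either strand to the cyclic AMP response element (CRE) TGACGTCA, to its shorter form TGACG, or to the TATA-like string TATANAA.
Ucn: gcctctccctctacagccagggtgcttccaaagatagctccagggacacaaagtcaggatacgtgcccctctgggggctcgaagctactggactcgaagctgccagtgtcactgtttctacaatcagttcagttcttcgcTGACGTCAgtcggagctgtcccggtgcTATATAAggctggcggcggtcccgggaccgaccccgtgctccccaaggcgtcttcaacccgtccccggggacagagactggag
Ucn2: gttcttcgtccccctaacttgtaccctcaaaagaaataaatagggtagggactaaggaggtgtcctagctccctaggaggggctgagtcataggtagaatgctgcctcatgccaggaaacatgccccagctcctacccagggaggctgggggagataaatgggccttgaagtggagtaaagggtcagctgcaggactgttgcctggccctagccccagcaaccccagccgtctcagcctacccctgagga
Ucn3: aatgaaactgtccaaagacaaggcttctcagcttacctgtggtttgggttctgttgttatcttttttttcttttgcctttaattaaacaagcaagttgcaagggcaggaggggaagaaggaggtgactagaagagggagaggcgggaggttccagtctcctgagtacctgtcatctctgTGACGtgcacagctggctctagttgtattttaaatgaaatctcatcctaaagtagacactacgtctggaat

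The *Ucn* window held 1 full CRE, whose first base lies 110 bases before the annotated start, and 1 TATA-like string 83 bases before it. The full CRE is its own reverse complement and so holds TGACG on both strands. The *Ucn2* window held none of these strings, and the *Ucn3* window held 1 TGACG, 71 bases before the start. Of 33469 windows of this length, 1.59% held TGACGTCA, 18.2% held TGACG and 11.6% held TATANAA. Windows were given for 6 of the 7 genes: those of *Crhr2* and *Crhbp* held 1 TGACG each, neither of the *Crhr1* windows held any of the strings, and *Crh* had no entry. A match is a description of the letters and says nothing of what binds there in the TG.

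All levels below are log2 signal relative to the 75th percentile of the array, which lay between 2617 and 2939 signal units, so a level of 0 is the signal of a fairly bright probe and the family lay far below it. A probe was called measured on an array when 50% or more of its kept spots were well above background. Between 70.8% and 77.2% of all probes met this on each array. The lowest shares were those of naive rats 4 (70.8%) and 5 (72.8%), the highest those of OUM rats 4 (77.1%) and 5 (77.2%). The other rats of both groups lay between 74.1% and 76.0%. The part of these shares in the counts of measured rats and in the levels of dim probes was not tested. Levels of different probes are not compared with each other, because probes differ in their affinity for their target.

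The tissue label was checked against marker genes. All 15 sensory neuron markers with a probe were measured on all 10 arrays, with *Uchl1*, *Nefm* and *Calca* the brightest. Their summed signal, relative to the 75th percentile, was 612 to 665 in naive and 561 to 687 in OUM rats. OUM rats 2, 4 and 5 (562, 561 and 583) lay below every naive rat and OUM rat 1 (687) above every one. The median difference of these markers was -0.079. Of the 12 satellite glia and Schwann cell markers, 11 were measured on all arrays (summed signal 403 to 461 and 410 to 450). Of 14 pituitary markers with a probe, 8 were measured on all arrays and *Ghrhr*, the receptor gene for growth hormone-releasing hormone, on none. Their sum was 24.4, 22.9 and 29.9 in naive rat 1 and OUM rats 1 and 2 and 3.84 to 8.48 in the other 7 rats. Galanin (*Gal*), one of these markers, is also made by sensory neurons. The summed signals of skeletal muscle (0.63 to 1.06 in naive and 0.67 to 0.88 in OUM rats), mast cell (0.27 to 0.40 and 0.34 to 0.45), leukocyte (17.0 to 23.5 and 16.6 to 23.3), meningeal and vessel (114 to 148 and 106 to 158) and red blood cell markers (241 to 330 and 202 to 333) overlapped between the groups.

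Of the 10 family probes, 4 were measured on all 10 arrays (*Ucn*, the first probes of *Ucn2* and *Crhr2*, and the first of *Crh*), 5 on some of them and 1, for *Ucn3*, on none. The fit across the array took each probe that was measured in all 5 rats of a group, which left 5 family probes of 4 genes. The second *Crhr2* probe passed only through the OUM group. Each of these 5 probes had the higher mean in the OUM model, beside a median difference of -0.013 over all probes tested. This is a description only, since the family was chosen with *Ucn* known to be higher.

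**Figure D1:**
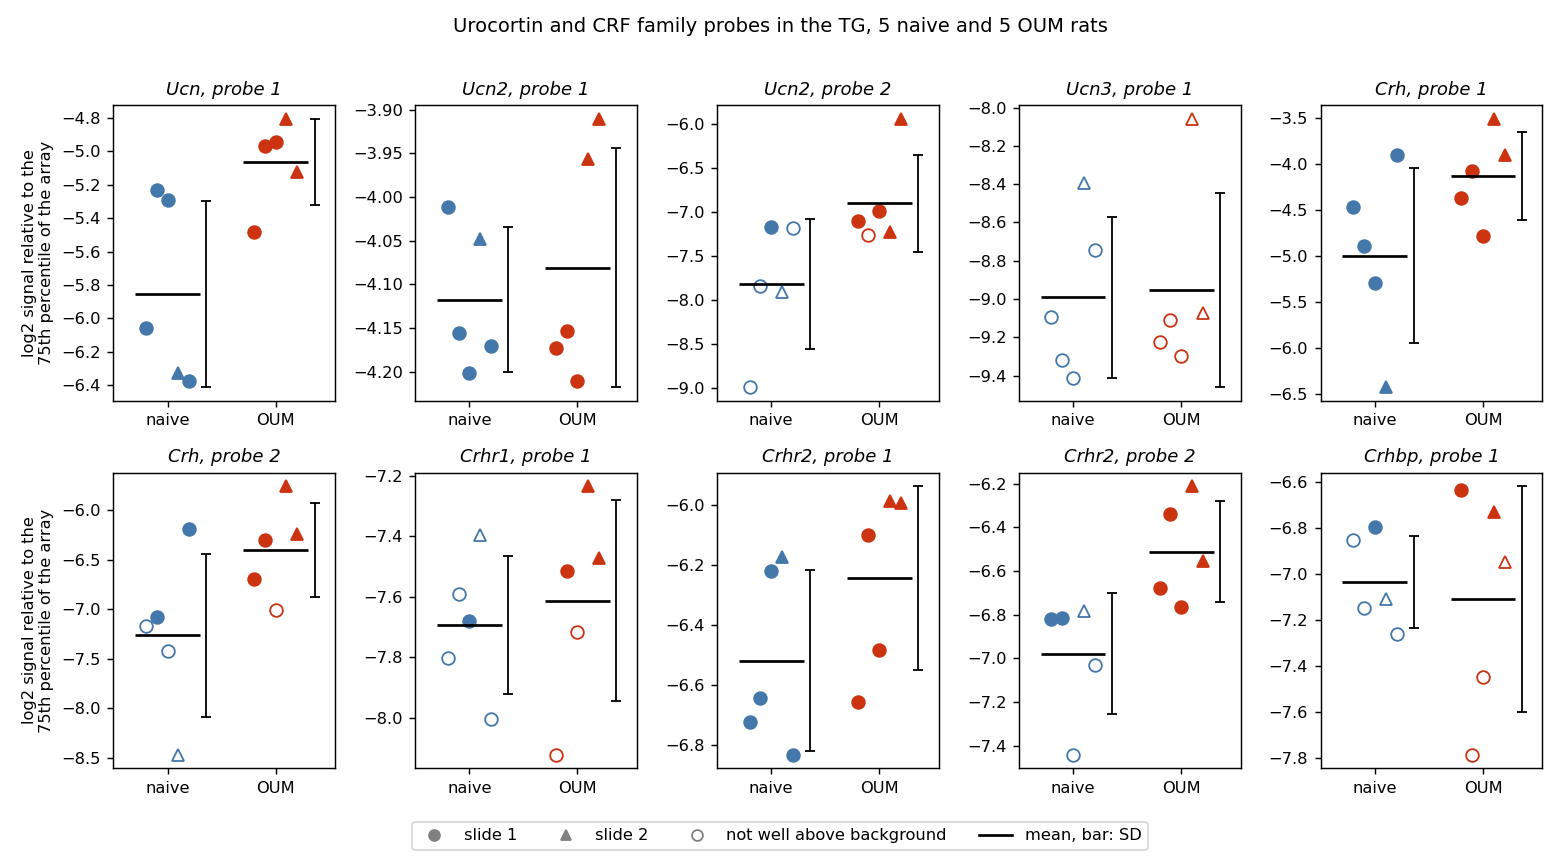
Log2 signal relative to the 75th percentile of the array (y axis, a separate scale in each panel) for the 10 probes of the family in 5 naive and 5 OUM rats, with filled symbols where the probe was measured above background, circles for slide 1, triangles for slide 2, lines for group means and bars for the SD. For *Ucn*, 4 OUM rats lie above every naive rat, for *Crh* the groups overlap, and for *Ucn3* every symbol is open.

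*Ucn* encodes urocortin, the member that binds both receptors. Its levels in the 5 naive rats were -6.06, -5.23, -5.29, -6.32 and -6.38 (rats 1 to 5), and in the 5 OUM rats they were -5.48, -4.97, -4.94, -4.81 and -5.12. The naive rats fell into a low set (rats 1, 4 and 5) and a high pair (rats 2 and 3), while the OUM rats lay close together, with 4 of 5 above every naive rat and OUM rat 1 inside the naive range. The means were -5.86 ± 0.56 in naive and -5.06 ± 0.26 in OUM rats (SD, n = 5 each), a difference of 0.79 (SE 0.25), or 1.73-fold.

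The *Ucn* probe was dim. Before scaling it read 31.5 to 74.2 signal units in naive and 61.2 to 104.9 in OUM rats, although 19 of its 20 spots were well above background. Its SD between rats of a group was 0.43, against an SD of 0.24 between its paired spots on one array. Here and below, the SD between rats is that of spot averages and the SD between spots that of single spots. The latter overstates the error of an average, so the 2 are not like measures. In an alternative that changed the signal, the background correction and the scaling together (median spot signal, normexp with an offset of 50, quantile normalization; called the normexp setting) the difference was 0.39, and the part of each change was not tested. Slide 1, with 4 naive and 3 OUM arrays, gave 0.61, and slide 2, with naive rat 4 and OUM rats 4 and 5, gave 1.36. With the slide as a block in the fit the difference was 0.82.

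*Ucn2* encodes a ligand preferring the *Crhr2* receptor. Its first probe read -4.01, -4.16, -4.20, -4.05 and -4.17 in naive and -4.17, -4.15, -4.21, -3.96 and -3.91 in OUM rats. All 10 rats lay within a 1.23-fold range and the groups overlapped, with a difference of 0.037 (SE 0.071). Its SD was 0.11 between rats of a group, for spot averages, and 0.19 between single paired spots. The second *Ucn2* probe was measured in 1 naive and 4 OUM rats only. It read -8.99, -7.84, -7.17, -7.90 and -7.19 in naive and -7.10, -7.26, -6.98, -7.23 and -5.95 in OUM rats. OUM rat 5 stood above all others on it, and no fold is given because it was not measured on every array of either group.

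*Ucn3* encodes another ligand of the *Crhr2* receptor. None of its 20 spots was well above background on any array, and its probe read between -9.41 and -8.06 over the 10 rats. A level of *Ucn3* below what this probe can detect is compatible with these values, so its absence from the TG is not shown.

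*Crh* encodes CRF itself, and its first probe had the highest SD between rats of the 4 family probes measured on all 10 arrays. Its first probe read -4.47, -4.89, -5.30, -6.43 and -3.90 in naive rats 1 to 5. In OUM rats 1 to 5 it read -4.38, -4.08, -4.78, -3.51 and -3.90. Naive rat 4 was the lowest and naive rat 5 stood as high as OUM rat 5, so that the groups overlapped and only OUM rat 4 lay above every naive rat. The naive rats alone spanned a 5.76-fold range, and all 10 rats a 7.54-fold range.

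The mean of *Crh* was -4.997 ± 0.95 in naive and -4.13 ± 0.48 in OUM rats (SD, n = 5 each), a difference of 0.87 (SE 0.43), or 1.82-fold. That value rests in part on naive rat 4: without it the difference was 0.51. On slide 1 it was 0.22 and on slide 2, where rat 4 is the only naive array, it was 2.72. Under the normexp setting it was 0.50. Although its mean difference was slightly above that of *Ucn*, its SE was larger and the rats of the groups were less well separated.

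The second *Crh* probe, printed as 10 spots per array, was measured in 2 naive and 4 OUM rats. It read -7.17, -7.08, -7.43, -8.47 and -6.19 in naive rats and -6.70, -6.30, -7.00, -5.76 and -6.24 in OUM rats. The lowest rat on this probe was again naive rat 4 and the highest again OUM rat 4. With group means removed, the 2 *Crh* probes had a Pearson r of 0.97 over 10 arrays, and of 0.91 over 8 arrays without naive rats 4 and 5, the rats farthest from their group mean. The probe pairs of *Ucn2* (r = -0.066) and *Crhr2* (r = 0.19) did not vary together in this way.

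**Figure D2:**
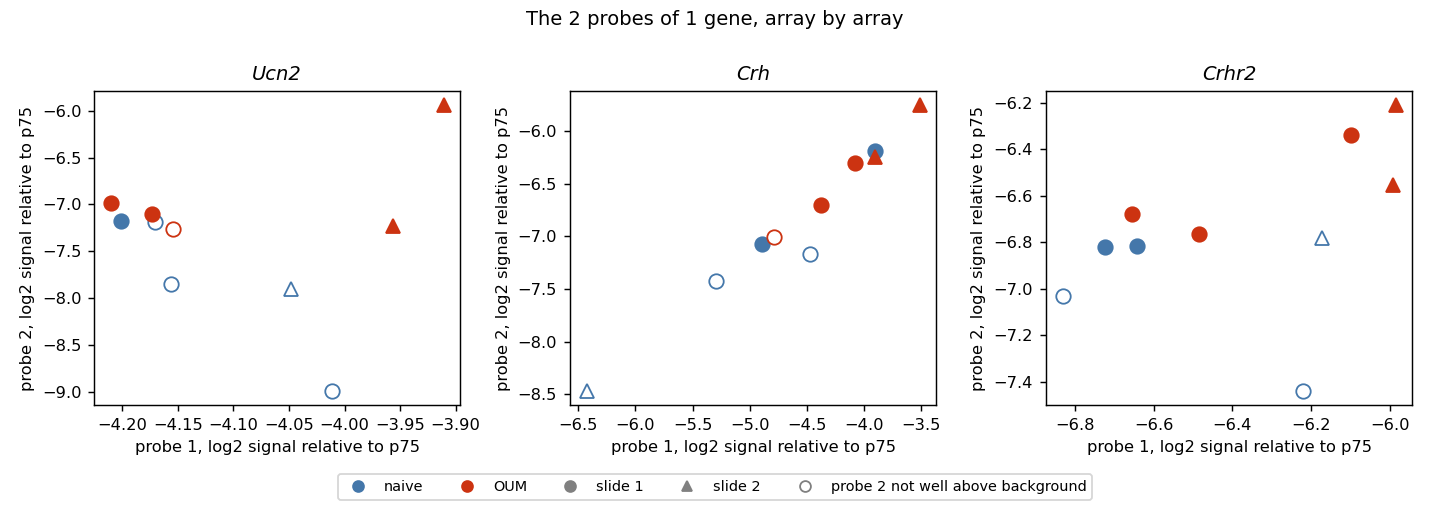
Log2 signal relative to the 75th percentile (p75) of the array for the first probe (x axis) and the second probe (y axis) of *Ucn2*, *Crh* and *Crhr2*, 1 symbol per rat, open where the second probe was not measured above background. The *Crh* symbols lie along a line from naive rat 4 to OUM rat 4, and those of *Ucn2* and *Crhr2* scatter.

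The spread of *Crh* between rats of a group was large for this array. Its SD of 0.75 was above that of 98.9% of the 20974 probes measured on all 10 arrays, and above that of 97.99% of the 2393 probes with a mean within 0.5 of its own. The SD of *Ucn* was above 96.0% of all probes and 90.8% of the 2059 probes of like signal. For the first *Crhr2* probe (SD 0.30) these shares were 90.3% and 64.4%. The first *Ucn2* probe, with an SD of 0.11, lay above 45.4% of all probes and 21.7% of the 2391 probes of like signal.

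No strong shared pattern of the members was seen within the groups. With group means removed, r between leading probes over the 10 arrays was 0.025 for *Ucn* with *Crh*, -0.15 for *Ucn* with *Ucn2* and 0.32 for *Ucn* with *Crhr2*. The remaining pairs ranged from -0.31 (*Crh* with *Crhr2*) to 0.48 (*Ucn2* with *Crhr2*). Over 10 arrays and with variation between spots, such values cannot show that the genes vary independently, which was not tested.

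*Crhr1* encodes the receptor preferred by CRF. Its probe was measured in 1 naive and 3 OUM rats and read -7.80, -7.59, -7.68, -7.40 and -8.01 in naive and -8.12, -7.52, -7.72, -7.24 and -7.47 in OUM rats. The lowest and the highest rat were both OUM rats, and only 4 of its 20 spots were well above background. In each rat where it was measured, only 1 of its 2 spots was well above background. Its SD was 0.28 between rats of a group, for spot averages, and 1.02 between single paired spots.

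*Crhr2* encodes the receptor shared by all the urocortins. Its first probe read -6.72, -6.64, -6.22, -6.17 and -6.83 in naive and -6.65, -6.10, -6.48, -5.99 and -5.99 in OUM rats. The groups overlapped, with 3 OUM rats above every naive rat and a difference of 0.27 (SE 0.17). Its SD was 0.30 between rats of a group, for spot averages, and 0.38 between single paired spots. In naive rats 1, 2, 4 and 5 and OUM rat 1, only 1 of its 2 spots was well above background. The slide as a block gave 0.19, and the normexp setting gave 0.077.

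The second *Crhr2* probe, measured in 2 naive and all 5 OUM rats, read -6.82, -6.82, -7.44, -6.78 and -7.03 in naive rats and -6.68, -6.34, -6.77, -6.21 and -6.56 in OUM rats. Here every OUM rat lay above every naive rat, though OUM rat 3 did so only narrowly. The difference of the values as read was 0.47 (SE 0.15), but naive rats 3, 4 and 5 were not above background on this probe, and it entered the fit through the OUM group, so no support is taken from it. Naive rat 3 was the lowest on this probe but among the highest naive rats on the first. Under the normexp setting the difference was 0.15.

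*Crhbp* encodes the binding protein that holds CRF and urocortin away from their receptors. It was measured in 1 naive and 2 OUM rats and read -6.85, -7.15, -6.80, -7.11 and -7.26 in naive and -6.63, -7.79, -7.45, -6.73 and -6.95 in OUM rats. The OUM rats lay on both sides of the naive range, and 4 of 20 spots were well above background.

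**Figure D3:**
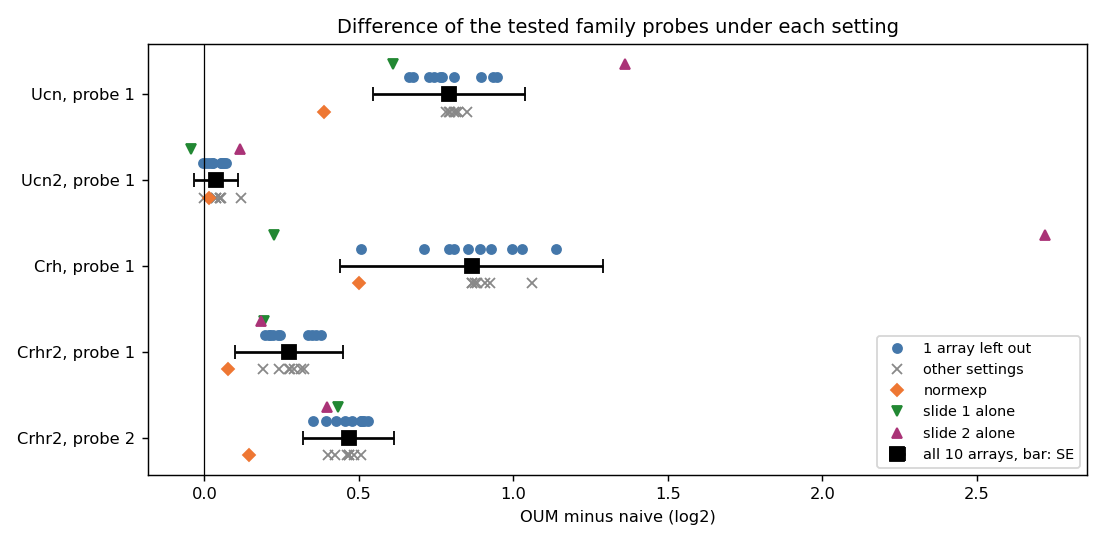
Difference between group means, OUM minus naive (x axis, log2), for the 5 family probes that entered the fit, from all 10 arrays (square, bar for the SE), with 1 array left out (circles), on each slide alone (triangles), under the normexp setting (diamond) and under other settings (crosses). *Ucn* ranges from 0.39 to 1.36 and *Crh* from 0.22 to 2.72, while *Ucn2* stays near 0.

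Across the whole array, none of 21969 probes passed an adjusted p of 0.05 between OUM and naive rats (limma, Benjamini-Hochberg), a background of 0%. At an unadjusted p of 0.05, limma called 828 probes higher in OUM rats (3.77%) and 1106 lower (5.03%). The methods' t-test called 689 and 1111 at that limit and none after adjustment. Groups that did not overlap, with every OUM rat above every naive rat, occurred for 170 probes (0.774%), 1 of which was the second *Crhr2* probe. Since the family was chosen from this contrast, no test outcome is given for its own probes.

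The genes with the array pattern most like that of each leading probe were named by Pearson r with group means removed, over 10 arrays and 11530 genes, as a description. For *Ucn* the highest was *Sik1*, a salt-inducible kinase (r = 0.93), followed by *Acat2*, an enzyme of lipid metabolism, and *Lrrc58* (both r = 0.91). The lowest were *Zfp414* and *Armc8* (both r = -0.94). These genes were picked as the extremes of 11530 over only 10 arrays. Whether their r exceeds what such a choice gives by chance was not tested. *Sik1* read -3.91, -2.44, -2.49, -3.74 and -3.97 in naive and -3.69, -3.46, -3.41, -3.39 and -3.58 in OUM rats.

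Naive rats 2 and 3, the high naive pair for *Ucn*, were thus also the high pair for *Sik1*, but for *Sik1* they stood above all 5 OUM rats, which fell inside the naive range. Without these 2 rats r was 0.70 for *Sik1* over the remaining 8 arrays, 0.71 for *Acat2* and 0.64 for *Lrrc58*, against -0.97 for *Zfp414* and -0.87 for *Armc8*. The likeness of the 3 highest genes to *Ucn* therefore rested to a large part on that pair.

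**Figure D4:**
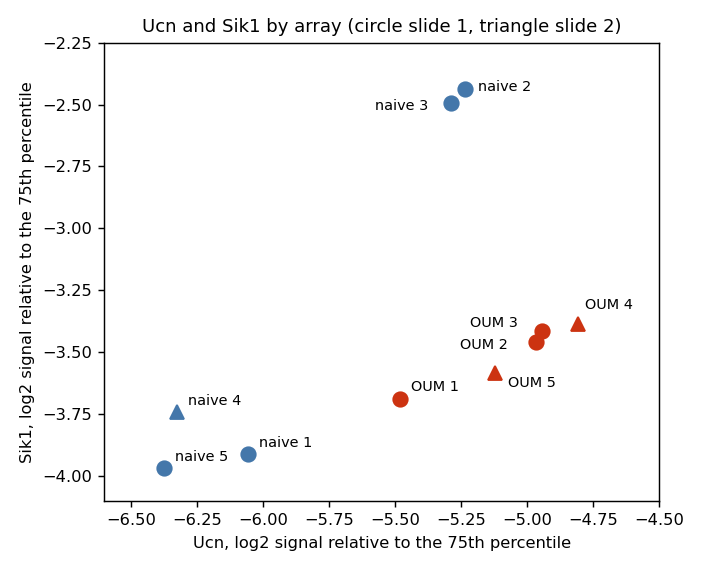
Log2 signal of *Ucn* (x axis) and *Sik1* (y axis) relative to the 75th percentile of the array, 1 symbol per rat, blue for naive and red for OUM. Naive rats 2 and 3 lie apart at the top, and the OUM rats form a cluster to the right with *Sik1* levels of -3.69 to -3.39. *Sik1* was picked as the gene of highest r among 11530.

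The genes most like the first *Crh* probe were *Fcmr* (r = 0.96), *Ccnc* (0.95) and *Pcna* (0.94), and the least like were *Tdrd7* (-0.96) and *Lrrc7* (-0.94). Without naive rats 4 and 5 the values were 0.90, 0.87, 0.86, -0.88 and -0.81. For the first *Ucn2* probe r reached 0.99 with *Ptn*, *Nanos3* and *Spop*, 0.985 for the last, and -0.98 with *Rnf31* and *Wdr6*. The SD of this *Ucn2* probe was only 0.11 between rats, for spot averages, and 0.19 between single spots. For the first *Crhr2* probe r was 0.93 with *Lrrc32* and *Lrrc10b* and 0.92 with *Pcdhga12*, and -0.98 with *Apoe*, the apolipoprotein E gene. The SD of this *Crhr2* probe was 0.30 between rats, for spot averages, and 0.38 between single spots.

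*Crh*, *Crhr1* and *Crhbp* are known from brain and pituitary, so the family was also read without the 3 arrays rich in pituitary markers. On these arrays *Ucn* read -6.06 in naive rat 1, in the low naive set, -5.48 in OUM rat 1, the lowest of its group, and -4.97 in OUM rat 2, among the higher rats. Without the 3 arrays the differences were 0.85 for *Ucn*, 1.06 for *Crh*, 0.31 and 0.51 for the *Crhr2* probes and 0.12 for *Ucn2*. The list of brain neuron and oligodendrocyte markers also held *Gfap*, a gene of other glia. Of its 10 markers, 8 were measured on all arrays and *Gad2* and *Neurod6* on none. Their sum was 2.03 to 4.13 in naive and 2.85 to 5.67 in OUM rats. OUM rat 4 had the highest sum, as it had the highest *Crh*, while naive rat 4, with the lowest *Crh*, had a sum of 2.90. These sums add linear signals, and that of OUM rat 4 came mostly from *Mobp* and *Gfap*, at log2 levels of 1.03 and 0.49. The neuron markers *Gad1* and *Slc17a7* had log2 levels of -1.97 and -4.70 in this rat. The part of brain or pituitary tissue in the *Crh* values was not tested.

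Genes around this family were taken as 5 pathway lists, and each gene was read by its brightest tested probe. The lists of neuropeptide enzymes and of other class B receptors do not carry the signal of this family. Counts over all lists are therefore not a readout of that signal. Of the 120 genes on the lists, 94 entered the fit. None passed the adjusted limit. At an unadjusted p of 0.05, 3 were higher and 1 lower, beside 3.77% higher and 5.03% lower over all probes, so neither count exceeds the background. Their median difference was 0.025, beside -0.013 for all probes tested. These 4 became 12 without naive rat 4, 9 without OUM rat 1 and 2 without OUM rat 2, and 8 with the slide as a block. With every tested probe of these genes counted, in place of the brightest alone, 6 of 115 probes passed.

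G proteins, arrestins and receptor kinases, the first step after the receptor, were nearly flat: 0 of 19 genes were higher and 1 lower at the unadjusted limit, with a median of -0.0092. The one was *Plcb4*, a phospholipase C of the Gq branch, with a difference of -0.18 (SE 0.077; adjusted p = 0.55 by limma). The largest difference in the list was that of *Grk3*, a kinase that desensitizes receptors (-0.20, SE 0.12). The same held for cyclic AMP, protein kinase A and CREB, with 0 of 24 genes past the unadjusted limit in either direction by their brightest probe and a median of -0.012. The other tested probe of *Akap12*, an anchoring protein of the kinase named after its values were seen, was past it at -0.16, beside -0.13 for the brightest. *Rapgef3*, a cyclic AMP sensor outside the kinase, differed most at 0.24 (SE 0.11), followed by the adenylyl cyclase *Adcy3* at 0.19 (SE 0.097).

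The list of the hypothalamic-pituitary-adrenal axis and glucocorticoid feedback had 2 of 16 genes higher at the unadjusted limit and 0 lower, with a median of 0.069, beside the 3.77% and 5.03% of all probes. *Sgk1*, a kinase gene induced by glucocorticoids, read -0.56 to 0.12 in naive and 0.0099 to 0.26 in OUM rats, a difference of 0.41 (SE 0.14; adjusted p = 0.49 by limma). Its difference was 0.45 on slide 1 and 0.13 on slide 2. *Avpr1a*, a vasopressin receptor, differed by 0.33 (SE 0.14; adjusted p = 0.54). For both genes, 4 of 5 OUM rats lay above every naive rat and the groups overlapped through the remaining one.

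*Pomc*, the precursor of adrenocorticotropin and a target of CRF in the pituitary, had the largest difference of the list at 2.48 (SE 1.25), which did not pass the unadjusted limit. Its levels ran from -2.13 to 3.79 in naive and from -0.84 to 4.08 in OUM rats. *Pomc* is itself one of the pituitary markers, and its 3 highest rats, naive rat 1 and OUM rats 1 and 2, were those with the high pituitary sums. The melanocortin receptor genes *Mc2r*, *Mc3r*, *Mc4r* and *Mc5r* and the steroid synthesis genes *Star* and *Cyp11a1* were not measured in a full group and were not tested.

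Of 17 genes that cut, modify or degrade neuropeptides, 1 was higher and 0 lower at the unadjusted limit, with a median of 0.032. This was *Ace*, angiotensin-converting enzyme, at 0.29 (SE 0.13; adjusted p = 0.56 by limma), whose other tested probe differed by -0.099. *Qpct*, which closes the amino end of some peptides, differed by -0.25 (SE 0.14). Of 18 other class B receptor genes and their ligands, none passed the unadjusted limit by its brightest probe and the median was 0.071. The brightest probe of *Calca*, the gene of calcitonin gene-related peptide, differed by -0.099 and its other tested probe by 0.34, the latter past the unadjusted limit. *Vip*, the gene of vasoactive intestinal peptide, differed most at -1.04 (SE 0.57), with naive rats from -6.40 to -3.39 and OUM rats from -6.27 to -4.88, all inside the naive range, and *Ghrh* differed by 0.22 (SE 0.15).

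**Figure D5:**
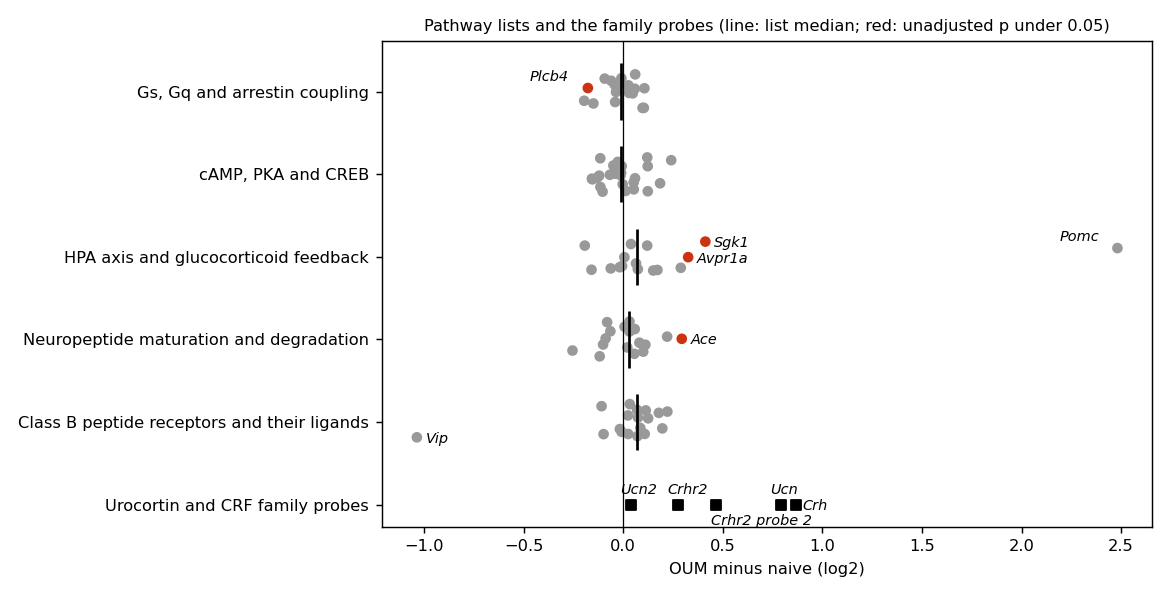
Difference between group means, OUM minus naive (x axis, log2), for each gene of the 5 pathway lists (circles, red at an unadjusted p under 0.05, vertical line for the list median) and for the 5 family probes that entered the fit (squares). Most list genes lie near 0, *Vip* (-1.04) and *Pomc* (2.48) lie far out, and the family probes run from 0.037 to 0.87.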

How the data were processed

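TG RNA was labelled with Cy3 and hybridised to 1-colour arrays, which the authors scanned and quantified with Agilent Feature Extraction 10.7.1.1. The deposited scanner files hold the processed signal, a background-subtracted intensity per spot. The authors' value table holds values near that intensity divided by 1902 to 2156 per array, a linear ratio (column medians 0.115 to 0.123; the SD of the log2 ratio to the intensity over probes was 0.034 to 0.12, so the division is not exact).

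Control spots and outlier spots were left out, spots of a probe averaged, and log2 intensity taken relative to the 75th percentile of the array over 58717 gene spots. Accessions were matched to a RefSeq table of GRCr8 for names only (18430 probes with 1 symbol, 11937 without). The array annotation names another build, so no array coordinates are given. Naive and OUM arrays (5 each) were compared with limma 3.58.1 in R 4.3.3 (lmFit, eBayes, two-sided, Benjamini-Hochberg over 21969 probes), without covariates. Figures and tables used Python 3.11.15. The fit was tested on simulated data.

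The members and lists were chosen with earlier results of these data known. Named were all family probes, in each list genes at an unadjusted p under 0.05 (at most 4 with values) or the 2 largest differences where fewer than 2 passed, the 3 most and 2 least like genes per leading probe, and the brightest markers. Not every gene this rule names is reported here. Each array is 1 rat, and the number of arrays limits the precision. Alternatives were other normalizations, normexp on the median signal (offset 50) with quantile normalization, filters, outlier spots kept, the authors' values, slides, the replicate number as a block, single arrays left out and other tests. Marker lists for muscle, mast cells, leukocytes, meninges and blood were also read.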

Additional observations from a re-analysis of the deposited data

Results flagged for a closer look

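Among 42 groups of 5 rats (21 probes of the family, of the named pathway genes and of *Sik1*, in naive and in OUM rats), 3 held a rat far from the other 4, where chance flags about 1 in 20 such groups. On the second *Ucn2* probe, OUM rat 5 read -5.95, against -7.26 to -6.98 in the other OUM rats, while on the first *Ucn2* probe it read -3.91 and OUM rat 4 -3.96. On the *Ucn3* probe, OUM rat 4 read -8.06, against -9.30 to -9.07 in the others, all below the limit for being measured. For *Qpct*, OUM rat 3 read -3.83, against -3.59 to -3.56 in the others.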

How the results depend on the processing

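The 5 family differences kept their direction in 20 alternatives each, except the first *Ucn2* probe, which was near 0 and kept it in 18. They moved by more than the SD between rats only for *Ucn* (1.36) and *Crh* (2.72) on slide 2 alone, where the lone naive array is assumed to vary like the others, and for the second *Crhr2* probe under the normexp setting (0.15). With 1 array left out they ranged from 0.66 to 0.95 for *Ucn*, -0.0059 to 0.069 for *Ucn2*, 0.51 to 1.14 for *Crh*, and 0.20 to 0.38 and 0.35 to 0.53 for the *Crhr2* probes. The count of probes past an adjusted p of 0.05, 0 in the reported fit, was 4 under the normexp setting, 2 with outlier spots kept, 2 with the filter on all 10 arrays, 5 with the slide as a block, 4 on slide 1, 166 on slide 2, 1 with an intensity trend and robust prior, 2 with 1 probe a gene, and 0 to 1 with 1 array left out. Pathway genes past the unadjusted limit, 4 in the reported fit, were 6 of 115 probes with every tested probe counted, 8 with the slide as a block, 12 on slide 1, 13 on slide 2, 2 to 12 with 1 array left out (12 without naive rat 4, 9 without OUM rat 1, 2 without OUM rat 2), and 7 without the 3 arrays richest in pituitary hormone genes, an alternative chosen after seeing the data. The causes were not tested. The labels give both groups the numbers 1 to 5, and deviations of same-numbered rats had r of -0.085 to 0.31. No strong pattern shared by number was seen, but this cannot show whether rats were paired in handling. The replicate block gave 0 probes past the adjusted limit and a *Ucn* difference of 0.79. Signal over background limits *Ucn3*, *Crhr1*, *Crhbp* and the second *Ucn2*, *Crh* and *Crhr2* probes, which were measured in part of the rats or none. It also limits the first *Crhr2* probe, which on some arrays was measured by only 1 of its 2 spots.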
